A study of Mus musculus with 15 samples.

Results

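The genes examined were 8 genes for Wnt ligands, Wnt3, Wnt3a, Wnt4, Wnt5a, Wnt5b, Wnt7a, Wnt7b and Wnt8b, and 2 target genes of the pathway, Lef1 and Axin2. These 10 genes were chosen by name out of 30534 genes in the count tables. All 10 passed the filter on low counts in the comparison of libraries. In the comparisons of pixels, Wnt3 and Wnt3a passed it nowhere as measured genes and served there only to mark pixels.

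The genes were measured in 11 transcript libraries from sections of mouse embryos, by a method that flows barcodes over a section in crossed microfluidic channels so that each crossing is a pixel. E10, E11 and E12 stand for days 10, 11 and 12 of development. There were 3 libraries of E10 with pixels 50 µm wide, 1 of E10 at 25 µm, 2 of E10 at 10 µm, 2 of E11 at 25 µm, 2 of E11 at 10 µm and 1 of E12 at 50 µm. The labels give no strain, genotype, sex or treatment, and they do not name the embryo or the body region of a section. P-values therefore measure the spread between these sections, and stage, region, embryo and batch cannot be told apart.

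Wnt proteins are secreted, lipid-modified signals that bind Frizzled receptors together with the co-receptors Lrp5 and Lrp6. In the canonical branch this stabilises β-catenin, which enters the nucleus and joins DNA-binding factors of the Tcf/Lef family, of which Lef1 is a member. Axin2 is a scaffold of the complex that destroys β-catenin, and its induction by the pathway makes it a feedback inhibitor and a common readout of canonical signalling. Wnt5a is best known for signalling outside this branch. In the embryo, Wnt3a marks the dorsal midline of the neural tube and the cortical hem, Wnt8b the hem and medial pallium, and Wnt5a the tips of outgrowths such as limbs and genital tubercle.

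The promoters of the 2 targets are shown because their relation to the ligands is what was measured across pixels. Each is the 250 bases before a RefSeq start on GRCm38.p6, and capitals mark a Tcf/Lef word, searched on both strands as CTTTGAA or CTTTGAT or CTTTGTA or CTTTGTT.
Axin2 promoter, chr11:108920099-108920348, plus strand: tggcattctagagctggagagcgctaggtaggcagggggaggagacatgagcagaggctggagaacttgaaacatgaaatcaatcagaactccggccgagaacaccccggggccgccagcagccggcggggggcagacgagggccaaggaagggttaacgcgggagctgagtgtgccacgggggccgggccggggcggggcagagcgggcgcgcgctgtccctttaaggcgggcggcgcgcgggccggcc
Lef1 promoter, chr3:131110047-131110296, plus strand: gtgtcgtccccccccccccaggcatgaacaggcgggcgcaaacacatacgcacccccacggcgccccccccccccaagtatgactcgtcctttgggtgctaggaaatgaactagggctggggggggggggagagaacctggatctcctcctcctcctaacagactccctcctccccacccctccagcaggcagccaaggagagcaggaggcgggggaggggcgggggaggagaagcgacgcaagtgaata
Lef1 internal start, chr3:131156044-131156293, plus strand: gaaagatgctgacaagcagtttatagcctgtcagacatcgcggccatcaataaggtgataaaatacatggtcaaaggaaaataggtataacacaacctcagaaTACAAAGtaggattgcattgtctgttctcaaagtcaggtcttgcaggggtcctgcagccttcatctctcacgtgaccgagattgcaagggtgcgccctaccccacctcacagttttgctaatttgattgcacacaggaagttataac

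No word was found in the windows of Axin2 or of the first Lef1 start, and 1 was found before the internal Lef1 start, on the opposite strand. Of 13 windows of the 8 members in the table, 2 held a word, the other one before a start of Wnt5b. Of all 32851 windows, 14.8% did. Wnt5a and Wnt7b had no entry. The absence of these letters says nothing of binding outside the window.

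Library totals over tissue pixels ran from 1563489 to 11998765 counts, and the median tissue pixel held 844 to 11332 counts. Levels are given as CPM, a gene's counts scaled to a common total of tissue counts in every library, with intervals and floors that cover counting error only. The content of the sections differed. The summed level of 7 neural progenitor genes was 655 to 2011 CPM in 9 libraries, 378 CPM at E12 and 120 CPM in E11 10 µm replicate 2. In that last library, 6 heart muscle genes summed to 4593 CPM and 5 liver genes to 3301 CPM. In bulk sums of this kind, fewer cells of a type and less RNA per cell cannot be told apart.

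Wnt4 was the only ligand whose level differed between stages by the test. Wnt4 (chromosome 4, 137277489 to 137299726, plus strand, GRCm38), known for its roles in kidney tubule and gonad formation and also transcribed in the neural tube, stood at 36.0, 23.2 and 22.8 CPM in E10 50 µm replicates 1 to 3, 12.8 in E10 25 µm, and 6.08 and 7.55 in E10 10 µm. It stood at 186 and 113 CPM in E11 25 µm, 30.0 and 61.6 in E11 10 µm, and 39.1 in E12 50 µm. All 4 E11 libraries lay above the 3 E10 libraries at the same pixel widths. Such a separation, in either direction, was found for 14.9% of all genes. With the changes at both shared widths averaged, Wnt4 rose 9.57-fold from E10 to E11 (97.5 ± 67.9 against 8.81 ± 3.53 CPM, SD, n = 4 and 3; log2 fold change 3.26, SE 0.39, adjusted p = 0.000795 by edgeR's quasi-likelihood test). In that comparison 1 of 10 members passed, against 3.6% of the 18233 genes tested.

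At 10 µm alone Wnt4 rose by 2.75 on the log2 scale (SE 0.43, adjusted p = 0.00476 by edgeR), with 3.33% of genes called. The call was lost without E10 10 µm replicate 1 (2.57, adjusted p = 0.0595 by edgeR). At 25 µm, against a single E10 library assumed to vary like the others, it rose by 3.76 (SE 0.62, adjusted p = 0.0217 by edgeR), with 0.455% of genes called. That call was lost without E11 25 µm replicate 1 (3.32, adjusted p = 0.126 by edgeR). The difference between these stage changes was 1.01 (SE 0.71, adjusted p = 0.728 by edgeR).

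The summed dorsal neural tube markers were 290 to 492 CPM in the 3 E10 libraries of these widths and 22.2 to 247 CPM in the 4 E11 libraries. The neural progenitor sum was 655 to 1254 CPM and 120 to 1000 CPM. Their part in the Wnt4 difference was not tested.

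Within a stage, Wnt4 was lower in the narrower pixels. At E11 it was 45.8 ± 22.4 CPM at 10 µm against 149 ± 51.3 at 25 µm (SD, n = 2 and 2; log2 fold change -1.81, SE 0.40, adjusted p = 0.0382 by edgeR), where 2.07% of genes were called. This call was lost in 7 of 17 alternatives, among them without E11 25 µm replicate 1 (-1.37, adjusted p = 0.208) or replicate 2 (-2.15, adjusted p = 0.122), without E11 10 µm replicate 1 (-1.36, adjusted p = 0.158) and without E10 50 µm replicate 2 (adjusted p = 0.0534) or replicate 3 (adjusted p = 0.0514). With the E11 title numbers as a replicate block the adjusted p was 0.0696. At E10 the difference between 10 and 50 µm was -1.99 (SE 0.40, adjusted p = 0.0859 by edgeR), where 0.11% of genes and 0 members passed. The unadjusted p of Wnt4 there was 0.000269, and DESeq2 called 2 members, Wnt3 and Wnt4.

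Wnt8b (chromosome 19, 44493472 to 44514273, plus strand) had the widest spread between libraries. It stood at 28.8, 28.1 and 41.5 CPM in E10 50 µm, 5.12 in E10 25 µm, and 4.0 and 174 in E10 10 µm replicates 1 and 2. It was at 0.197 and 0.260 CPM in E11 25 µm, 1.56 and 0 in E11 10 µm (3 counts, the most that 0 counts allow, would be 1.09 CPM), and 1.54 at E12. All 4 E11 libraries lay below all 6 E10 libraries. At the shared widths, the 4 E11 and 3 E10 libraries did not overlap for 14.9% of all genes. The stage change of Wnt8b did not pass (log2 fold change -5.51, SE 2.12, adjusted p = 0.190 by edgeR). It passed by DESeq2 (-5.57, adjusted p = 0.00241). The summed dorsal forebrain markers were also higher at E10, at 177 to 210 CPM in E10 50 µm, 410 in E10 25 µm, and 158 and 477 in E10 10 µm, against 26.1 to 141 CPM in the E11 and E12 libraries. The order of libraries was not the same for both, since E10 25 µm had the second highest sum with Wnt8b at 5.12 CPM, and E11 10 µm replicate 1, at 141 CPM, lay close to E10 10 µm replicate 1. Their part in the difference was not tested.

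Wnt5a (chromosome 14, 28504750 to 28527448, plus strand) was highest at E12, at 114 CPM against 56.7, 55.2 and 69.1 in E10 50 µm. In this comparison of 1 library with 3, the groups did not overlap for 62.9% of all genes, and the difference did not pass (log2 fold change 0.88, SE 0.64, adjusted p = 0.609 by edgeR). Elsewhere it ran from 14.2 to 73.6 CPM, both at E10 10 µm. At E12 against E10 at 50 µm, 2.14% of genes and 0 members passed; DESeq2 also called 0, and no member had an unadjusted p below 0.05.

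The remaining ligands did not pass in any contrast by edgeR, while DESeq2 called Wnt3 lower at 10 µm within both stages and Wnt3a lower at E11 over both widths and at 10 µm. Wnt7b (chromosome 15, 85535437 to 85582473, minus strand) ran from 0.729 to 176 CPM, with the lowest value in E11 10 µm replicate 2, the section with few neural transcripts. Wnt7a (chromosome 6, 91363981 to 91411363, minus strand) ran from 0 to 22.1 CPM with its 0 in the same library. Wnt5b (chromosome 6, 119432531 to 119544347, minus strand) varied least of the ligands, from 6.56 to 18.5 CPM. Wnt3 (chromosome 11, 103774150 to 103817957, plus strand) and Wnt3a (chromosome 11, 59248033 to 59290752, minus strand) were sparse, with 274 and 162 counts over all libraries, and each was at 0 in 2 libraries. These zeros, and that of Wnt7a, are genes with no column in the library's table, read here as 0 counts; the counting floor for Wnt3 there was 0.566 and 1.09 CPM. Wnt3 was at 0.917 and 0 CPM in E10 10 µm and at 0.778 and 0 in E11 10 µm, below every library with wider pixels. Of all genes, 30.8% did not overlap between 10 and 50 µm at E10, and 35.4% between 10 and 25 µm at E11.

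The targets varied less between libraries than most ligands. Lef1 (chromosome 3, 131110471 to 131224356, plus strand) stood at 47.7, 68.2 and 93.6 CPM in E10 50 µm, 76.8 in E10 25 µm, 68.9 and 84.9 in E10 10 µm, 51.9 and 44.2 in E11 25 µm, 50.6 and 27.7 in E11 10 µm and 57.5 at E12. All 4 E11 values lay below the 3 E10 values at the same widths, as 14.9% of all genes did in either direction, and the change did not pass (log2 fold change -0.73, SE 0.29, adjusted p = 0.156 by edgeR). Axin2 (chromosome 11, 108920349 to 108950783, plus strand) ran from 31.7 to 35.4 CPM in E10 50 µm, was 37.1 in E10 25 µm, 20.3 and 39.3 in E10 10 µm, 31.2 and 25.4 in E11 25 µm, 16.3 and 10.2 in E11 10 µm, and 17.8 at E12. Its E11 values lay below those of E10 within each width and overlapped them across widths. Groups did not overlap for 49.2% of all genes at 10 µm and 76.4% at 25 µm, in either direction. The change of Axin2 from E10 to E11 did not pass either (log2 fold change -0.68, SE 0.30, adjusted p = 0.191 by edgeR).

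Genes on the opposite strand overlap Wnt5a (Gm2670), Wnt5b (Fbxl14), Wnt7b (AU022754), Lef1 (Gm43352) and Axin2 (Gm11670), and Gm42449 overlaps Lef1 on the same strand. Whether counting used strand is not given in the sources used here, so reads of these pairs may not be told apart.

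**Figure D1:**
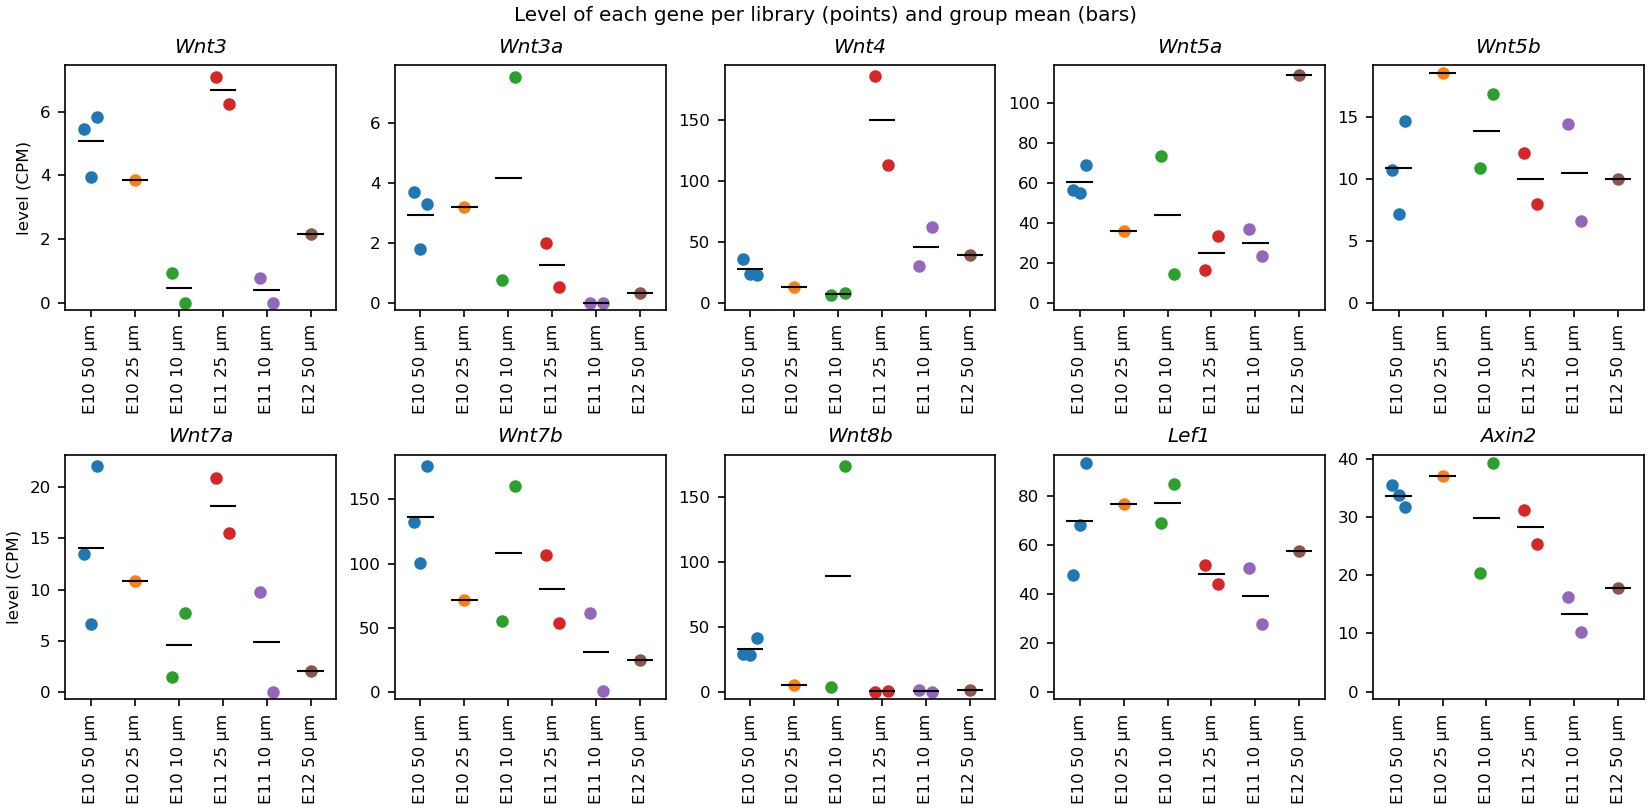
Level of each member in CPM, 1 point per library, by stage and pixel width; bars are group means. Wnt4 reached 186 and 113 CPM in E11 25 µm, while Wnt8b was at or under 1.56 CPM in the E11 libraries.

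Of 72 further pathway genes, 65 were tested between libraries and few passed. From E10 to E11 over both widths 1 rose and 3 fell. The receptor gene Fzd8 fell by 2.23 on the log2 scale (SE 0.34, adjusted p = 0.00496), the secreted Frizzled-related gene Sfrp2 by 1.24 (SE 0.26, adjusted p = 0.0264) and the Wnt target Tnfrsf19 by 1.60 (SE 0.33, adjusted p = 0.0232, all by edgeR). T, the Brachyury gene of tail bud and notochord and also a Wnt target, rose; it stood at 18.9 and 13.8 CPM in E11 25 µm and 1.56 and 0.365 in E11 10 µm against 0 to 0.250 CPM in E10 at 25 and 10 µm (log2 fold change 5.92, SE 1.12, adjusted p = 0.0162 by edgeR). Wnt1, a dorsal midline ligand, was lower at 10 than at 25 µm within E11, at 0 and 0 against 4.54 and 4.56 CPM (adjusted p = 0.0338 by edgeR).

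The spatial pattern of each gene was measured as Moran's I, which is near 0 where a gene's counts are scattered and near 1 where neighbouring pixels hold like levels. Wnt8b was the most clustered where it was abundant, at 0.453, 0.540 and 0.680 in E10 50 µm replicates 1 to 3 and 0.353 in E10 10 µm replicate 2. Wnt4 had a Moran's I of 0.426 and 0.401 in E11 25 µm and 0.241 to 0.356 in E10 50 µm. Wnt7b ran from 0.236 to 0.381 in E10 50 µm and reached 0.431 and 0.359 in E11 25 µm.

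Wnt5a had its highest value at E12 (0.305). Wnt5b stayed between -0.0092 and 0.0498 in all 11 libraries so no clustering was detectable at this depth. Of the targets, Lef1 was highest in E10 50 µm replicate 3 (0.351) and Axin2 in the same library (0.182) and in E11 25 µm (0.161 and 0.140). Pixels were then thinned to a total common to their library, from 397 counts in E10 25 µm to 4532 in E10 50 µm replicate 1. Depth was therefore not made equal between libraries. After thinning, Wnt8b was at 0.312, 0.458 and 0.540 in E10 50 µm and at 0.137 in E10 10 µm replicate 2. In E11 25 µm thinning lowered Wnt4 to 0.217 and 0.207, Wnt7b to 0.205 and 0.1, and Axin2 to 0.0657 and 0.0538. In E10 50 µm replicate 3 Lef1 was then at 0.211 and Axin2 at 0.134, and Wnt5a at E12 was at 0.230.

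**Figure D2:**
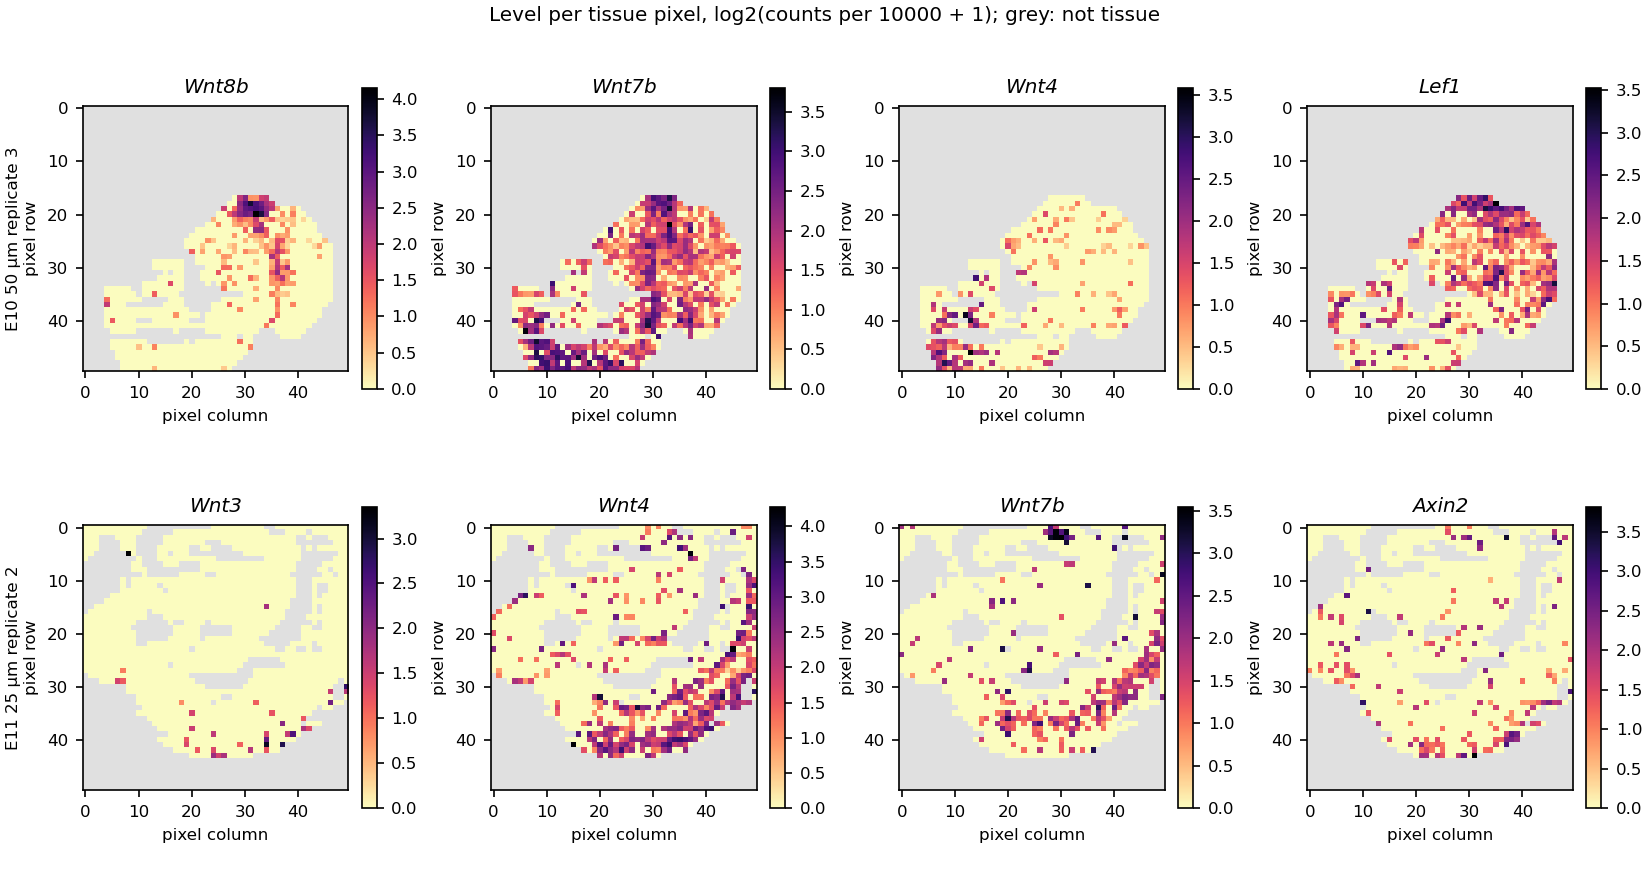
Level per tissue pixel, log2(counts per 10000 + 1), on the pixel grid of E10 50 µm replicate 3 (upper row) and E11 25 µm replicate 2 (lower row); grey is not tissue. Wnt8b formed 1 dense patch and a thin stripe (Moran's I 0.680), and Lef1 was high at the same upper edge. Wnt3 and Axin2 lay along the lower right edge of the E11 section, within the outer of the bands of Wnt4.

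To ask what surrounds each ligand, counts were summed over pixels with at least 1 count of the ligand. They were also summed over ligand-free pixels of matched total count, in each library with 20 or more of each. The larger set was cut to the size of the smaller, and the sums were tested with the library as a block. For Wnt7b this left out positive pixels in E10 50 µm replicates 1 and 3, where 522 of 859 and 566 of 839 were positive. Pixels served as parts of a library and never as replicates. These fits tested 56 pairs of members, of which 5 passed, all higher; the share of all genes called ran from 0.0% to 3.23% between the fits. Beside the ligands 4 of 42 pairs passed, all higher, where the share of all genes called ran from 0.0247% to 5.3% between the fits.

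Wnt3-positive pixels held more transcripts of Axin2 and of genes of the dorsal neural tube. The fit held 197 positive pixels of 5 libraries, and 34 of 7479 genes passed (0.455%), 18 higher and 16 lower. Olig3, a factor of dorsal neural progenitors, was at 79.8, 31.8 and 48.0 CPM in Wnt3-positive pixels of E10 50 µm against 22.9, 2.16 and 18.4 in matched pixels. In E11 25 µm it was at 73.7 and 48.8 CPM against 0 and 8.87. Positive pixels were higher in every library (log2 fold change 1.96, SE 0.30, adjusted p = 0.000205 by edgeR), and the call held in all 12 alternatives that could test it.

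The dorsal homeobox genes Msx3 (1.13, SE 0.19) and Msx1 (1.18, SE 0.23), the zinc finger gene Casz1 (1.38, SE 0.22), the Hedgehog co-receptor gene Cdon (1.07, SE 0.25) and the collagen gene Col4a5 (1.42, SE 0.34) were also higher in all 5 libraries. So were Pax3 (0.95, SE 0.17), a factor of the dorsal neural tube and somites, and the Frizzled gene Fzd10 (0.98, SE 0.21), the only 1 of 32 tested pathway genes that passed here. Of the dorsal neural tube list, 2 of 3 tested genes rose. Lower were the heart actin gene Actc1 (-1.48, SE 0.26), Fgfbp3 and Hmcn1, and the forebrain gene Lhx2 (-1.21, SE 0.23). Of 13 alternatives, Casz1 passed in 12, Msx3 in 11, Pax3 and Actc1 in 10, Fzd10 in 9, Msx1 and Cdon in 7 and Hmcn1 in 5. Col4a5 passed in 4 of 9, Fgfbp3 in 5 of 11 and Lhx2 in 8 of 10.

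Axin2 was higher in Wnt3-positive pixels in all 5 libraries. It stood at 75.4, 55.1 and 44.3 CPM against 44.8, 36.8 and 20.9 CPM in matched pixels of E10 50 µm, and at 133 and 102 CPM against 22.1 and 35.5 CPM in E11 25 µm. Each positive value lay above its matched value, and the difference passed (log2 fold change 1.03, SE 0.22, adjusted p = 0.0147 by edgeR). The difference between E11 and E10 was 1.07 (SE 0.56, adjusted p = 0.817 by edgeR). The call was lost without E10 50 µm replicate 1 (1.19, adjusted p = 0.145) or replicate 3 (1.00, adjusted p = 0.104), without E11 25 µm replicate 1 (0.89, adjusted p = 0.0710), in the E10 libraries alone (0.81, adjusted p = 0.178), and by DESeq2 (1.12, adjusted p = 0.196).

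By distance, Axin2 declined away from Wnt3. Its median over the 5 libraries was 75.4 CPM in Wnt3-positive pixels, 47.0 at a distance of 1 pixel, 34.5 at 2 and 23.9 at 3 or more. These levels took all tissue pixels at each distance, without matching on total count. A pixel was 50 µm wide in the E10 libraries and 25 µm in the E11 libraries. In E11 25 µm replicate 1 the values were 133, 69.0, 49.3 and 17.8 CPM, and in replicate 2 they were 102, 65.4, 25.8 and 14.7. In E10 50 µm replicate 2 the order was not kept, with 30.6 CPM at 1 pixel and 36.6 at 2. Lef1 gave 73.6, 50.7, 52.2 and 52.6 CPM over the same distances.

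Pixels free of Wnt3 but side by side with a Wnt3-positive pixel were compared with matched pixels that had no Wnt3 among the 8 nearest. Axin2 was higher there in 6 of 8 libraries without passing (log2 fold change 0.78, SE 0.37, adjusted p = 0.837 by edgeR), in a fit with 0.242% of genes called. In the 2 E11 libraries alone it passed, at 94.8 and 80.3 CPM against 17.2 and 12.6 (2.54, adjusted p = 9.26e-08 by edgeR). That fit of 2 libraries called 180 of 7573 genes. Pax3 (1.13, SE 0.13), Fzd10 (1.06, SE 0.17) and Wnt4 (1.12, SE 0.15) were higher beside Wnt3, in 8, 7 and 6 of 8 libraries. The Wnt4 call was lost against all distant pixels (1.16, adjusted p = 0.0626) and in the E10 libraries alone (0.86, adjusted p = 0.0522).

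Wnt3a-positive pixels were few, 100 in 3 libraries, and 2 of 8502 genes passed (0.0235%). These were Ezr, which links actin to the membrane (1.13, SE 0.22, 3 of 3 libraries), and Ttr, the transthyretin gene of liver and choroid plexus (1.68, SE 0.29, 2 of 3). DESeq2 called 0, and each of the 2 passed in 6 of 10 alternatives. Axin2 stood at 76.0, 56.0 and 38.7 CPM against 38.0, 30.5 and 19.4 in E10 50 µm replicates 1 and 3 and E10 10 µm replicate 2. It was higher in 3 of 3 libraries and did not pass (0.95, SE 0.35, adjusted p = 0.999 by edgeR). In E10 10 µm replicate 2 the positive pixels held 4 counts of Axin2.

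Beside Wnt3a, Axin2 passed. In neighbouring pixels it stood at 55.7, 45.0 and 37.0 CPM in E10 50 µm replicates 1 to 3, 21.8 and 64.7 in E10 10 µm, and 128 in E11 25 µm replicate 1. The matched distant pixels held 22.9, 24.8, 19.3, 10.9, 22.7 and 8.53 CPM in the same order. All 6 libraries were higher (log2 fold change 1.21, SE 0.22, adjusted p = 0.0180 by edgeR), in a fit where 0.0634% of genes passed. The call was lost without E11 25 µm replicate 1 (1.10, adjusted p = 0.0593 by edgeR). It was also lost for pixels with a diagonal but no side neighbour (0.49, adjusted p = 0.999 by edgeR). Wnt8b was also higher beside Wnt3a, in the 5 E10 libraries (1.33, SE 0.20, adjusted p = 0.000564 by edgeR), and had 0 counts on both sides in the E11 library. That call was lost for pixels with a diagonal but no side neighbour (0.95, adjusted p = 0.267 by edgeR).

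Wnt4-positive pixels shared Pax3, Fzd10 and Axin2 with those of Wnt3. The fit held 1750 positive pixels of 10 libraries, and 111 of 10676 genes passed (1.04%), 64 higher and 47 lower. Pax3 was at 98.0 to 126 CPM in Wnt4-positive pixels of E10 50 µm against 56.9 to 61.1 CPM, and at 86.3 and 92.7 against 24.2 and 28.7 in E11 25 µm. It was at 0 on both sides in E10 10 µm replicate 2 and E11 10 µm replicate 2 (1.20, SE 0.12, 8 of 10 libraries higher). Fzd10 (1.07, SE 0.14, 8 of 10) and Fzd3 (0.57, SE 0.12, 9 of 10) were the receptors that passed, 2 of 12 tested. The calls of Pax3 and Fzd10 held in all 19 alternatives.

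The growth factor receptor gene Fgfr3 was higher in 10 of 10 libraries (0.66, SE 0.11), and the progenitor gene Fabp7 (0.79, SE 0.15) and Sox9 (0.33, SE 0.07) in 8 of 10. Afp (-1.74, SE 0.18) and Alb (-1.67, SE 0.14), plasma protein genes of fetal liver, were lower, in 6 and 4 of 10 libraries. Also lower were the metallothionein gene Mt2 (-0.67), Cnn2 and Myl9 (both -0.47) and Lhx2 (-0.59). Of 19 alternatives, Cnn2 passed in all, Fgfr3 in 18, Fzd3 in 17, Fabp7, Sox9 and Myl9 in 15, Lhx2 in 13 and Mt2 in 12. Wnt4 was in turn higher in Wnt3-positive pixels, at 589 and 279 CPM against 243 and 177 in E11 25 µm, and at 91.8, 44.5 and 16.0 against 15.3, 13.0 and 17.2 in E10 50 µm (1.26, SE 0.24, adjusted p = 0.00938 by edgeR). This call was lost without E10 50 µm replicate 1 (0.88, adjusted p = 0.203) or E11 25 µm replicate 1 (1.25, adjusted p = 0.0975).

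Axin2 was at 55.6 and 38.5 CPM in Wnt4-positive pixels of E11 25 µm against 17.1 and 18.2 in matched pixels, and at 32.4 against 16.8 at E12. In E10 50 µm it was at 46.1, 41.4 and 33.9 against 32.5, 43.6 and 22.1 CPM, and in E10 10 µm at 17.4 and 55.7 against 14.2 and 23.9. E11 10 µm gave 19.0 CPM, from 2 counts, against 9.49 in replicate 1 and 0 on both sides in replicate 2. It was higher in 8 of 10 libraries (0.70, SE 0.15, adjusted p = 0.0131 by edgeR). The call was lost without E11 25 µm replicate 1 (0.55, adjusted p = 0.164) or replicate 2 (0.63, adjusted p = 0.136), and in the E10 libraries alone (0.38, adjusted p = 0.964). The difference between E11 and E10 was 0.93 (SE 0.30, adjusted p = 0.146 by edgeR). Beside Wnt4-positive pixels Axin2 did not pass (0.17, SE 0.13, adjusted p = 0.923 by edgeR), where 0.127% of genes did. In 4 of the 11 libraries of that fit matching left totals over 0.1 apart on the log2 scale. The largest gap was 0.438, in E11 25 µm replicate 2.

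The next values, of Wnt4-positive pixels in single sections, have no replicate, and their genes were chosen by rank among listed genes with 20 or more counts. At E12, Wnt4-positive pixels held 34.8 CPM of Pax6 against 2.41 and 102 CPM of Sox2 against 15.6, both neural progenitor genes. They also held more of Pax8 (26.4 against 2.41 CPM) and Lhx1 (52.7 against 9.63 CPM), which are active in early kidney tubules, Lhx1 also in neurons. In E11 10 µm replicate 2, the section with few neural transcripts, Wnt4 was still clustered (Moran's I 0.187). Among the listed genes there, Wt1 of the coelomic epithelium and urogenital ridge was at 213 CPM against 97.4, a ratio exceeded by those of Bcl9 and the secreted inhibitor gene Sfrp1.

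**Figure D3:**
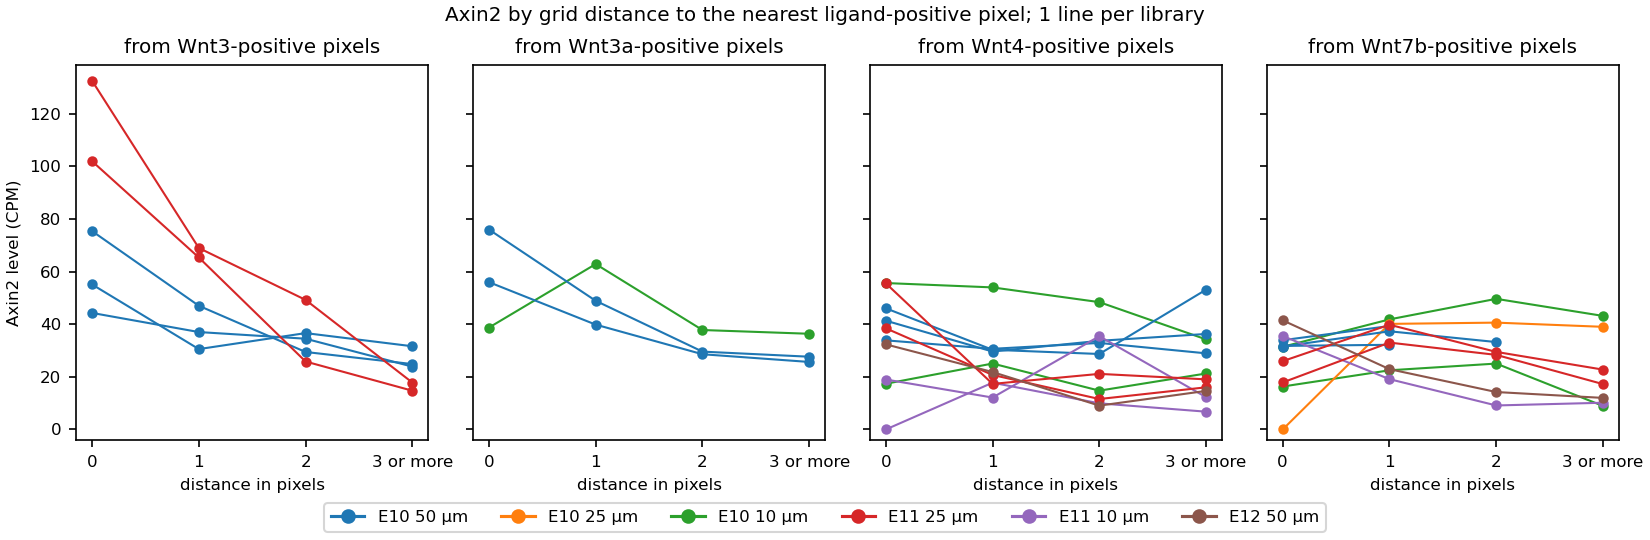
Axin2 level in CPM by grid distance, in pixels, to the nearest pixel positive for Wnt3, Wnt3a, Wnt4 or Wnt7b, 1 line per library with 20 or more positive pixels. From Wnt3, the E11 25 µm libraries fell from 133 and 102 CPM to 17.8 and 14.7.

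Wnt5a and Wnt5b pixels carried little in common across sections. For Wnt5a, 0 of 10654 genes passed (0.0%) in 11 libraries by edgeR, and DESeq2 called 5. By edgeR, 499 genes had an unadjusted p below 0.05. In 3 of these libraries matching left totals over 0.1 apart on the log2 scale. With closer pairs only, 10 genes passed, in a fit of 10 libraries. Beside Wnt5a, 0.0247% of genes passed. In the E12 section, listed genes were picked after their values were seen, and not all listed limb genes are given. Wnt5a-positive pixels held 203 CPM of Msx1 against 19.3 and 22.5 of Hoxd13 against 2.76. They held 11.5 of Msx2 against 2.21 and 35.7 of Lhx9 against 11.6. All are homeobox genes of limb or genital mesenchyme, and Lhx9 is also on the dorsal forebrain list. Lef1 was at 109 against 33.1 CPM there, a ratio of 3.31 (95% counting interval 2.47 to 4.49), and Nkd2, a Wnt feedback gene, at 73.1 against 24.3. This is 1 section with no replicate, and values of these homeobox genes in the other 10 libraries are not given here. In those 10 libraries Lef1 was higher in Wnt5a-positive pixels in 4.

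For Wnt5b, 3 of 6478 genes passed (0.0463%), among them the fore- and midbrain factor Otx2 (0.60, SE 0.12, 8 of 10 libraries) and the heart myosin gene Myh7 (-0.77, SE 0.12). The Myh7 call held in 18 of 18 alternatives and that of Otx2 in 13 of 17. Beside it 0.0506% passed. Neither target passed with Wnt5a or Wnt5b, in the pixels or beside them.

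Wnt7a and Wnt7b shared pixels. Wnt7b was at 186, 129 and 229 CPM in Wnt7a-positive pixels of E10 50 µm against 113, 96.4 and 145, at 149 against 126 in E10 10 µm replicate 2, and at 216 and 130 against 100 and 59.4 in E11 25 µm. Positive pixels were higher in 6 of 6 libraries (0.71, SE 0.10, adjusted p = 0.00110 by edgeR). Seen from Wnt7b, Wnt7a was higher in 7 of 10 libraries (0.95, SE 0.20, adjusted p = 0.00684), and lower in both E10 10 µm libraries and in E11 10 µm replicate 1. Both calls held with each library left out in turn. The first was lost against all negative pixels (0.73, adjusted p = 0.0558) and the second in the E10 libraries alone (0.65, adjusted p = 0.118).

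Around Wnt7a, 51 of 9246 genes passed (0.552%), 28 higher and 23 lower. The progenitor gene Sox2 (0.57, SE 0.10), Fgfbp3 (1.08, SE 0.20), Ttyh1, Ndnf, Ednrb and Ptprz1 (0.60 to 0.69) were higher in all 6 libraries, and the mesenchymal genes Col1a2 (-0.58, SE 0.12) and Prrx1 (-0.64, SE 0.15) were lower, with Crispld2, Chchd10 and Rbms3. Of 15 alternatives, Sox2, Fgfbp3 and Ednrb passed in 13, Ptprz1 in 12, Ttyh1 in 11, Col1a2 in 10, Ndnf in 9 and Prrx1 in 6. Beside Wnt7a, 5.3% of genes passed. There 4 of 7 progenitor genes rose, led by Pax6 (1.29, SE 0.27) and Hes5 (1.10, SE 0.23), while 5 of 5 tested heart muscle genes and 5 of 6 fibrillar mesenchyme genes fell. Fzd3 and Sfrp2 rose and Fzd4 and Dkk2 fell there, the 4 of 34 tested pathway genes that passed. In 2 of the 10 libraries of this fit matching left totals over 0.1 apart on the log2 scale. With closer pairs only, 263 genes passed, against 470.

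Around Wnt7b, 372 of 11533 genes passed (3.23%), 138 higher and 234 lower. Sox21 (0.88, SE 0.15), Fgfr3 (0.76, SE 0.10), Fam181b, Dtx4, the cadherin gene Celsr2 and Cdh4 were higher in all 10 libraries. The forebrain factor Fezf2 (0.91, SE 0.17), the motor neuron and oligodendrocyte progenitor factor Olig2 (0.95, SE 0.22), Pax3 (0.61), Sox3 (0.48), Lhx1 (0.48) and Fabp7 (0.39) also rose. Lower were Man1a, Sh3bgr and the red cell gene Ermap in all 10 libraries, and Col1a1, Col1a2, Actc1 and Cdh5. Isl1 (-0.56), on the ventral neural tube list with Olig2, and Nefl (-0.46) were also lower. Of the 7 genes of the neuron list only Nefl passed. In 3 of these libraries matching left totals over 0.1 apart on the log2 scale. With closer pairs only, 187 genes passed. Of 19 alternatives, Sox21, Fgfr3, Dtx4 and Col1a1 passed in all, Pax3 in 18, Nefl and Isl1 in 17 and Olig2 in 16. Celsr2 passed in 13, Actc1 in 11, Fabp7 and Cdh5 in 10, Sox3 and Col1a2 in 9 and Lhx1 in 8.

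None of 48 tested pathway genes passed around Wnt7b. The targets did not pass around either ligand: Axin2 gave -0.25 (SE 0.17) with Wnt7a and -0.23 (SE 0.13) with Wnt7b, and Lef1 -0.17 (SE 0.14) and 0.06 (SE 0.17). Beside Wnt7b, 0.486% of genes passed, with Wnt4 higher on the whole (0.93, SE 0.17, adjusted p = 0.00444 by edgeR) but only in 4 of 8 libraries, led by E11 25 µm (266 and 166 against 142 and 65.4 CPM). That call was lost against all distant pixels (0.94, adjusted p = 0.0508).

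Wnt8b-positive pixels, 911 in 5 E10 libraries, carried the R-spondins. Of 11011 genes, 76 passed (0.69%), 36 higher and 40 lower. Rspo3, which raises the sensitivity of cells to Wnt by way of Lgr receptors, was at 43.7, 103 and 48.1 CPM against 9.37, 17.0 and 7.50 in E10 50 µm, and at 20.6 and 295 against 13.7 and 72.1 in E10 10 µm. It was higher in 5 of 5 libraries (2.23, SE 0.15), and Rspo2 (1.92, SE 0.19) and Rspo1 (1.46, SE 0.16) in 4 of 5. The receptor genes Lgr4 (-0.72, SE 0.17) and Fzd10 (-0.87, SE 0.17) fell, and the target Tnfrsf19 rose (1.02, SE 0.15). These were 4 pathway genes higher and 2 lower of 45 tested. The calls of the R-spondins and Tnfrsf19 held in 13 of 13 alternatives, and those of Lgr4 and Fzd10 in 8.

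The dorsal forebrain genes Emx1 (1.41, SE 0.34) and Emx2 (1.28, SE 0.17), with Dmrt3, Dmrta1 and Nfix (1.51 to 1.73) and the fore- and midbrain gene Otx2 (1.00, SE 0.11), were higher in 5 of 5 libraries. Of the dorsal forebrain list, 3 of 7 tested genes rose and 7 of 7 were above 0, with a median of 1.12 against -0.01 for all genes. Lower were Pax3 (-1.18, SE 0.18), Sncg (-1.33, SE 0.17), Nefl (-0.73, SE 0.11), Fndc5, Fam49a and the heart genes Actc1, Myh7 and Myl7. Emx2, Otx2, Pax3, Sncg, Nefl and Actc1 passed in 13 of 13 alternatives, Myh7 in 12, Dmrt3 and Nfix in 11, Dmrta1 and Myl7 in 10 and Emx1 in 8. Beside Wnt8b, 0.137% of genes passed, with Otx2 (0.83, SE 0.12) higher.

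Lef1 had its largest difference with Wnt8b. It was at 66.4, 93.3 and 137 CPM in Wnt8b-positive pixels of E10 50 µm against 42.4, 55.3 and 73.2, at 85.8 against 51.4 in E10 10 µm replicate 1, and at 86.4 against 96.8 in replicate 2. It was higher in 4 of 5 libraries and did not pass (0.55, SE 0.14, adjusted p = 0.0614 by edgeR). It passed without E10 10 µm replicate 2 (0.78, adjusted p = 5.07e-05) and for pixels with 2 or more Wnt8b counts (0.91, adjusted p = 0.00211). Beside Wnt8b-positive pixels Lef1 gave 0.00 (SE 0.13).

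Across the 8 ligands, Lef1 passed with 0 in the positive pixels by edgeR and by DESeq2, with 1 unadjusted p under 0.05 and log2 fold changes from -0.25 to 0.55. It passed with 0 beside them, with 0 unadjusted p-values under 0.05. Axin2 passed with 2 of 8 ligands in the positive pixels, Wnt3 and Wnt4, and beside 1 of 8, Wnt3a. Whether the ligands differ from each other in this was not tested.

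**Figure D4:**
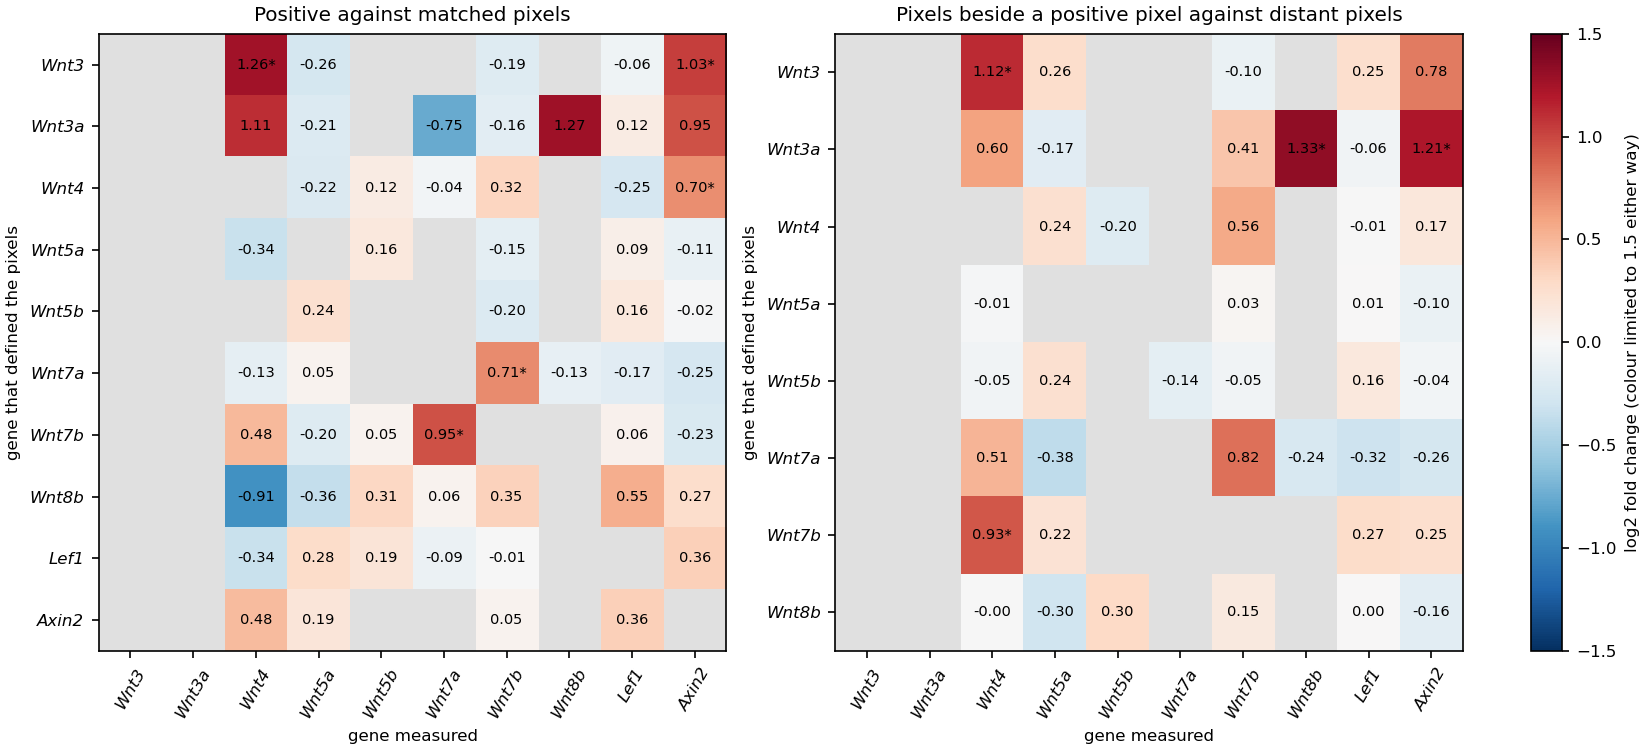
Log2 fold change of each member (columns) in pixels positive for a member (rows, left) and in pixels beside a ligand-positive pixel (right); asterisks mark an adjusted p under 0.05 over all genes of that fit, and grey was not tested. The called pairs are Wnt3 with Wnt4 and Axin2, Wnt4 with Axin2 and Wnt7a with Wnt7b in each direction on the left.

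Seen from the targets, Lef1-positive pixels gave 26 of 10715 genes (0.243%), 9 higher and 17 lower. Fezf2 (0.73, SE 0.16), Emx2 (0.61, SE 0.15) and Rspo3 (0.56, SE 0.13) rose, and Nefl (-0.48, SE 0.10) and Krt8 (-0.56, SE 0.13) fell. In 2 of its 11 libraries the match left totals over 0.1 apart, and 4 genes passed with closer pairs only. Fezf2 passed in 11 of 12 alternatives, Nefl in 11 of 20, Rspo3 in 10 of 18, Krt8 in 8 of 19 and Emx2 in 5 of 18. Axin2-positive pixels gave 0 of 9191 genes (0.0%) in 10 libraries by edgeR, 461 with an unadjusted p under 0.05 and 0 by DESeq2. The log2 fold changes of Lef1 and Axin2 were each above 0 in the other's pixels (0.36, SE 0.19, and 0.36, SE 0.16) and neither passed.

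Correlations across the pixels of a section, given as descriptions, were weak. Pixels share a library and its depth. Wnt3 with Axin2 gave a Pearson r of 0.111, 0.083 and 0.133 in E10 50 µm and 0.120 and 0.170 in E11 25 µm, and lay between -0.0138 and -0.0050 in the other 4 libraries with Wnt3 counts. Wnt4 with Axin2 gave 0.178 and 0.138 in E11 25 µm, with a lowest value of -0.0587 in E10 50 µm replicate 3 and a median of 0.0148 over 11 libraries. Wnt8b with Lef1 reached 0.285 in E10 50 µm replicate 3 (median 0.0223 over 10 libraries), and Wnt5a with Lef1 0.216 at E12 (median -0.0099 over 11). Over blocks of 5 by 5 pixels (37 to 100 per section) these 2 were 0.602 and 0.515, and Wnt3 with Axin2 gave 0.562, 0.284 and 0.481 in E10 50 µm and 0.328 and 0.611 in E11 25 µm.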

How the data were processed

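Transcripts were counted per gene and pixel by the authors, and the deposited tables hold these raw counts, with no normalization. Per the submitters' processing notes, CASAVA 1.8.2 and genome build GRCh38 were named; that is a human build, and the build used for these mouse counts could not be settled; the annotation, the counting tool and the use of strand are not given in the sources used here. The members and gene lists were chosen with earlier results of these data known.

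Pixels with at least 0.1 of the 95th percentile of a library's total were taken as tissue, and their counts were summed per library. Total counts per library limit the precision. Libraries were compared with edgeR 4.0.16 (R 4.3.3; quasi-likelihood test, TMM scaling, filterByExpr, two-sided, Benjamini-Hochberg adjustment over all genes tested, threshold 0.05), with 6 group means over 11 libraries. Pixel comparisons used the same test with the library as a block, 20 or more pixels a side and at least 3 libraries. Beside Wnt4, Wnt5a, Wnt5b, Wnt7a, Wnt7b and Wnt8b, matching left totals over 0.1 apart on the log2 scale in 1 to 4 libraries. Moran's I and Pearson's r used log2(counts per 10000 + 1). Alternatives included DESeq2 1.42.0, scaling by relative log expression, no filter, other pixel sets and each library left out. Leaving out libraries in the pixel fits, closer matching of totals and leaving out pseudogenes were chosen after seeing the data. The edgeR fits were tested on simulated data. Genes were named if called with 1 direction in every library (up to 6 higher and 3 lower), or if called and on a list; single-section genes were chosen after their values were seen. Gene positions are from GENCODE M21 (GRCm38) and promoters from RefSeq. The 4 antibody libraries were not used.

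Results for some genes that met the naming rule are not reported here.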

Additional observations from a re-analysis of the deposited data

Results flagged for a closer look

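In Wnt7a-positive pixels, Wnt4 lay on opposite sides of the matched pixels at the 2 stages. It was lower than in matched pixels in all 4 E10 libraries (32.6, 32.8, 23.0 and 0 against 50.1, 45.7, 23.5 and 7.44 CPM) and higher in both E11 25 µm libraries (256 and 142 against 245 and 116 CPM). The E10 pair of 23.0 and 23.5 CPM and the E11 pair of 256 and 245 CPM were nearly equal. The pair of 0 and 7.44 CPM, in E10 10 µm replicate 2, rested on very few counts. In the positive pixels there, 2 counts of Lef1 made 14.9 CPM. The difference of the log2 fold changes, E11 minus E10, was 0.56 (SE 0.26) and did not pass (adjusted p = 0.515 by edgeR's quasi-likelihood test with Benjamini-Hochberg adjustment).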

How the results depend on the processing

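The rise of Wnt4 from E10 to E11 over both widths held in 16 of 16 alternatives (2.93 to 3.49 on the log2 scale). Between libraries, the number of members called was 1 for E11 against E10 over both widths, and 2 with no filter, 3 by DESeq2 and 1 to 3 with a library left out. At 10 µm it was 1, and 4 with no filter, 3 by DESeq2 and 1 to 2 with a library left out. At 25 µm it was 1, and 0 to 1 with a library left out. For 10 against 50 µm at E10 it was 0, and 2 with no filter, 2 by DESeq2 and 0 to 2 with a library left out. For 10 against 25 µm at E11 it was 1, and 3 with no filter, 2 by DESeq2, 0 with pseudogenes left out and 0 to 2 with a library left out. For E12 against E10 it was 0, and 0 to 1 with a library left out. With the E11 title numbers as a replicate block the E11 width comparison called 0 members (Wnt4 -1.84, adjusted p = 0.0696 by edgeR); the correlation of same-numbered deviations was 0.0766, so the numbers were not taken to pair the sections.

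Of 8 ligands, Lef1 was called in the positive pixels with 0, and with 1 against all negative pixels, 1 with no filter, 2 at 2 or more counts (higher with Wnt8b at 0.91, lower with Wnt4 at -0.64, adjusted p = 0.0245 by edgeR) and 0 to 1 with a library left out. Axin2 was called with 2, and with 0 in E10 sections only, 1 by DESeq2, 1 at 2 or more counts and 0 to 2 with a library left out. Beside the ligands Axin2 was called with 1, and with 0 for diagonal neighbours and 0 in E10 sections only. The cause of these changes was not tested.

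Thinning changed the median Moran's I of Wnt7a from 0.0582 to -0.0017, Wnt4 from 0.187 to 0.0840, Wnt7b from 0.191 to 0.0913, Lef1 from 0.0933 to 0.0254, Axin2 from 0.0562 to 0.0242, Wnt5a from 0.0789 to 0.0478, Wnt8b from 0.0428 to -0.0008, Wnt3 from 0.0227 to -0.0012 and Wnt5b from 0.0086 to -0.0062. Over blocks of 5 by 5 pixels the median r was 0.284 for Wnt3 and Axin2, -0.105 for Wnt3a and Lef1, 0.255 for Wnt3a and Axin2, 0.105 for Wnt4 and Axin2, 0.0841 for Wnt5b and Lef1, -0.112 for Wnt7a and Lef1, 0.0797 for Wnt7b and Axin2 and 0.120 for Wnt8b and Lef1.

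Counts of genes called around a member differed from those given above. Against all negative pixels they were 246 for Wnt3, 29 for Wnt3a, 426 for Wnt4, 51 for Wnt5a, 22 for Wnt5b, 464 for Wnt7a, 1074 for Wnt7b, 243 for Wnt8b, 70 for Lef1 and 123 for Axin2. With no filter they were 57, 5, 409, 57, 14, 171, 783, 167, 104 and 61. With totals within 0.1 on the log2 scale they were 187 for Wnt7b, 10 for Wnt5a, 4 for Lef1 and 7 for Axin2. In E11 sections only they were 509 for Wnt4, 276 for Wnt7a, 19 for Wnt5a, 11 for Wnt5b and 20 for Axin2, in E10 sections only 34 for Wnt4, 21 for Wnt3, 6 for Wnt5a, 207 for Wnt7b, 56 for Lef1 and 10 for Axin2, and at 2 or more counts 420 for Wnt4, 119 for Wnt8b, 13 for Lef1 and 28 for Axin2. Scaling by relative log expression gave 0 for Wnt3a. By DESeq2 they were 9 for Wnt3, 0 for Wnt3a, 5 for Wnt5a, 29 for Wnt7a, 42 for Wnt8b and 6 for Lef1. Beside Wnt3, Wnt3a, Wnt4, Wnt5a, Wnt5b, Wnt7a, Wnt7b and Wnt8b they were 18, 5, 14, 2, 5, 470, 47 and 15, and 201, 71, 65, 16, 35, 886, 215 and 55 against all distant pixels. In E10 sections only they were 45, 1, 9, 0, 14, 198, 0 and 33. In E11 sections only they were 180 for Wnt3, 155 for Wnt4, 44 for Wnt5a and 340 for Wnt7b. With closer totals they were 1 for Wnt4, 1 for Wnt5a, 1 for Wnt5b, 263 for Wnt7a and 28 for Wnt7b. For diagonal neighbours alone they were 3 for Wnt3a, 1 for Wnt4, 0 for Wnt5a and 2 for Wnt5b. They were 92 for Wnt7a, 0 for Wnt7b and 1 for Wnt8b. Between libraries DESeq2 called 1377 genes for E11 against E10 over both widths (656 by edgeR), 968 (608) at 10 µm, 393 (83) at 25 µm, 397 (20) for widths at E10, 554 (378) for widths at E11 and 521 (390) for E12. Of 96 calls named in positive pixels, 22 held in all alternatives that could test them.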
